A study of Homo sapiens with 6 samples.

Results

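The 9 genes described here are NT5E and 8 others of the extracellular adenosine pathway: ENTPD1, ENTPD2, ENTPD3, ADORA1, ADORA2A, ADORA2B, ADA and ADK. They were taken by symbol from the deposited gene table, which held all 9 among its 26372 genes. The set was chosen by the FPKM of NT5E in the comparison below, where it is far lower in the knockdown, so the values of NT5E are a description with no test. The other 8 genes were listed for their place in the pathway.

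ATP that leaves a cell acts on P2 receptors until enzymes on the cell surface break it down. NTPDases such as CD39, encoded by ENTPD1, remove phosphates to give AMP, and CD73, the GPI-anchored ecto-5′-nucleotidase encoded by NT5E, turns AMP into adenosine. Adenosine acts on the G protein-coupled receptors encoded by the ADORA genes. It is taken up through equilibrative nucleoside transporters and is then phosphorylated by adenosine kinase (ADK) or deaminated by adenosine deaminase (ADA). In the nervous system adenosine damps transmitter release through A1 receptors, and CD73 is also a defining surface marker of mesenchymal stromal cells.

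The cells were SH-SY5Y, a human neuroblastoma line in which noradrenergic cells of neuronal shape and flat mesenchymal cells have both been described. One group of 3 libraries (shT2 in the titles) came from cells with an shRNA against TDP-43, the RNA-binding protein encoded by TARDBP, and the other 3 (shNC3) from cells with a control shRNA. Both hairpins were delivered with the lentiviral vector pLVX-U6-shRNA1, and stable knockdown cells were selected and kept in puromycin. The labels do not say whether an arm was a clone or a pool, or whether the 3 libraries of a group were separate cultures. The p-values below therefore refer to the spread among these libraries, which may be technical. The values are FPKM, fragments scaled by transcript length and library size, from poly(A) RNA.

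TARDBP, the targeted gene, stood at 42.8% of its control level in the knockdown (21.2 ± 0.598 against 49.5 ± 1.49 FPKM, SD, n = 3 each). The absolute depth is unknown, and the steps between low values put the shallowest library, knockdown library 2, at 52.9% of the deepest. A gene was tested when its mean over the 6 libraries was at least 1 FPKM, which held for 13434 genes, and was called at an adjusted p under 0.05 by limma on log2(FPKM + 1) with Benjamini-Hochberg adjustment over all of them. Of these genes 66.3% were called, 30.5% higher and 35.9% lower, so a call is common in these libraries, and 7.95% were called and at least 2-fold lower on that scale. Noradrenergic markers were present in both groups, with 10 of 13 tested called higher and 2 lower. The 14 summed to 1148 to 1274 FPKM in the knockdown and 980.5 to 1028 in the control. NPY, called lower, made up a large part of the control sum (428 ± 20.7 FPKM) and stood at 24.9 ± 0.957 in the knockdown (SD, n = 3 each). DBH, the other gene called lower, stood at 31.3 against 38.1 FPKM. With columns rescaled to equal sums 5 were higher and 6 lower. TH, the first enzyme of catecholamine synthesis, was listed at 0 in all 6 libraries. Mesenchymal markers mostly moved down, with 10 of 12 called lower and 1 higher. They summed to 624 to 639 FPKM in the knockdown against 2139 to 2179 in the control, where VIM and FN1 had means of 1118 and 620 FPKM. ANXA1 and CAV1 were listed at 0 in every knockdown library. TWIST1, the gene called higher, rose from 111 ± 3.27 to 294 ± 7.94 FPKM (SD, n = 3 each), a large part of the knockdown sum. SNAI2 was not called (10.4 FPKM in the knockdown against 10.7). Schwann and glial markers summed to 24.6 to 26.9 against 8.70 to 9.71 FPKM (3 of 3 tested called higher, SOX10 at most 0.435 FPKM), and of 7 blood and endothelial markers only CD68, which other cells also express, was tested. It was called lower, and the 7 summed to 2.66 to 3.49 FPKM in the knockdown and 14.1 to 15.4 in the control. The part of these markers in the results below was not tested.

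NT5E, a gene for the step from AMP to adenosine, was nearly undetected in the knockdown, while ENTPD1, a gene for the step before it, was higher. NT5E went from 76.6 to 0.495 FPKM. ADK, the kinase that clears adenosine inside cells, fell to 23.6% of its control level, and the receptor gene ADORA2B to 50.6%. ENTPD1 rose 1.28-fold. Of the 8 genes other than NT5E, 5 were tested, with 1 called higher, 2 called lower and 2 not called. Over all tested genes 66.3% were called, 30.5% higher and 35.9% lower. A change at least as large in either direction was found in 50.2% of tested genes for ENTPD1, 23.7% for ADORA2B and 2.95% for ADK. NT5E also passed the filter, through the control alone. ENTPD2, ENTPD3 and ADORA1 lay below 1 FPKM on average, each with a lower mean in the knockdown.

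**Figure D1:**
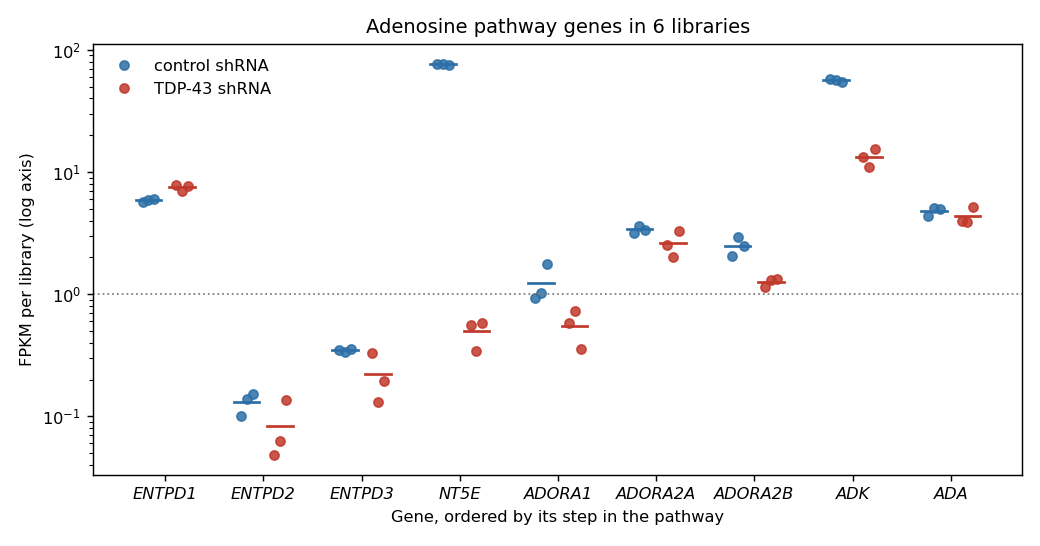
FPKM of the 9 genes (log axis) in the 3 control shRNA libraries (blue) and the 3 TDP-43 shRNA libraries (red), with a bar at each group mean and a dotted line at 1 FPKM, the minimum mean for a test. NT5E drops from about 77 to under 0.6 FPKM and ADK from over 54 to under 16 FPKM, while ENTPD1 lies higher in all 3 knockdown libraries.

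NT5E lies on chromosome 6 (GRCh38, 85449584 to 85495791, plus strand, ENSG00000135318.11). It stood at 0.559, 0.342 and 0.585 FPKM in knockdown libraries 1 to 3 and at 77.06, 77.08 and 75.7 FPKM in control libraries 1 to 3. The groups lay far apart, with almost no spread in the control. Its mean was 0.495 ± 0.133 FPKM in the knockdown against 76.6 ± 0.776 FPKM in the control (SD, n = 3 each), which is 0.646% of the control level or a 155-fold difference. On the log2(FPKM + 1) scale, which understates the change of low values, the difference was -5.70, and 8 tested genes, NT5E among them, had a fall of at least that size. In the control NT5E was above 94.2% of tested genes, and in the knockdown above 1.61% of them. In these bulk libraries fewer cells that express a gene and less of its RNA per cell cannot be told apart.

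The promoter window of NT5E is shown because this gene carries the steepest fall of the pathway. It is the 250 bases before the RefSeq start (GRCh38.p14, chr6:85449833-85450082, plus strand), with GC boxes (GGGCGG on either strand) and the half-site of the cyclic AMP response element (TGACG on either strand) in capitals.
NT5E promoter: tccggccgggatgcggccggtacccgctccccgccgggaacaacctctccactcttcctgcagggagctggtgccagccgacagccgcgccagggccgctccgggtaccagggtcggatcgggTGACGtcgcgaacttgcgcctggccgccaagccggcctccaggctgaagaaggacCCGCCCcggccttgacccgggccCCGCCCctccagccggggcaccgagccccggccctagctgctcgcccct
The window held 2 GC boxes and 1 half-site. A GC box was present in 42.6% of all RefSeq promoter windows of this length, and 24.3% held at least 2. A TGACG was present in 21.2%. The window held no full cyclic AMP response element (TGACGTCA), no hypoxia response core (ACGTG), no AP-1 site (TGANTCA) and no TEAD site (GGAATG), read on both strands, which occurred in 1.65%, 18.5%, 6.57% and 11.9% of windows. These are matches of letters, not measured sites. In GENCODE release 29 the NT5E gene starts 499 bases upstream of this RefSeq start, so the window lies within the gene as annotated there.

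The genes around NT5E had much smaller differences, in both directions. SNX14, a sorting nexin gene on the minus strand whose near end lies 9.71 kb beyond NT5E, stood at 19.2, 17.4 and 18.7 FPKM in the knockdown and 23.2, 23.7 and 23.2 in the control. Its groups did not overlap, and it fell by 0.33 on the log2 scale (standard error 0.051, limma adjusted p = 4.86e-04). SYNCRIP, an RNA-binding protein gene, and SNHG5, a small nucleolar RNA host gene, followed at 112 and 165 kb, with differences of -0.13 (limma adjusted p = 0.0241) and 0.04 (limma adjusted p = 0.434). SYNCRIP turned to a rise of 0.14 with quantile normalization, and its call was lost in 6 other settings, 4 of which left out a library. On the other side the nearest tested genes were over 1 Mb away, and CEP162, MRAP2 and CYB5R4 rose by 0.49, 0.91 and 0.69. With columns rescaled to equal sums CEP162 and CYB5R4 turned negative. That rescaling moved the median of all genes by -0.80. CEP162, CYB5R4 and MRAP2 lay 0.50, 0.66 and 0.91 above the median it gave.

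**Figure D2:**
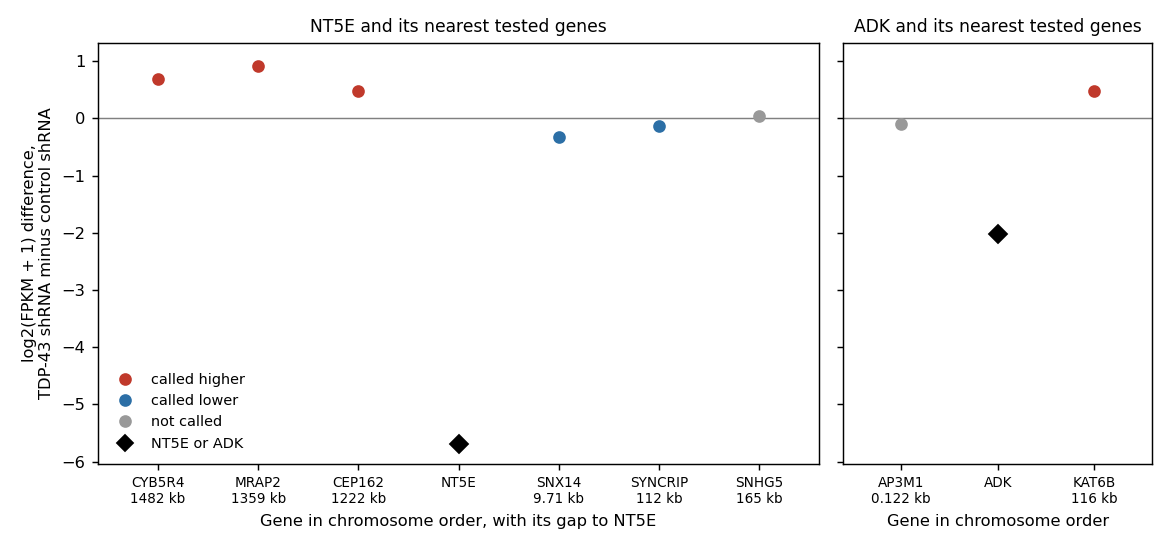
Difference in log2(FPKM + 1), TDP-43 shRNA minus control shRNA, for NT5E and ADK (diamonds) and their nearest tested genes in chromosome order, with the gap to NT5E or ADK in kb under each name and the standard error as a bar, mostly hidden by the point. Neighbours of NT5E lie between -0.33 and 0.91 while NT5E lies at -5.70, and AP3M1, 0.122 kb from ADK, lies at -0.09 while ADK lies at -2.02.

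The enzymes that make AMP from ATP were measured at low to moderate levels. ENTPD1 (chromosome 10, 95711779 to 95869695, plus strand), the gene of CD39, stood at 7.82, 7.01 and 7.71 FPKM in the knockdown and 5.63, 5.93 and 6.02 in the control. All 3 knockdown values lay above all 3 control values. Groups without overlap were the common case, in 70.8% of tested genes. ENTPD1 rose by 0.31 (standard error 0.065, limma adjusted p = 0.00279). With columns rescaled to equal sums its difference was -0.47, lying 0.35 over the all-gene median there. ENTPD1-AS1 overlaps it on the other strand and stood at or under 0.597 FPKM in all libraries.

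ENTPD2 and ENTPD3 encode NTPDases that differ from CD39 in their preference for ATP over ADP. ENTPD2 (chromosome 9, 137048098 to 137054045, minus strand) stood at 0.0481, 0.0633 and 0.137 FPKM in the knockdown and 0.101, 0.140 and 0.153 in the control, and the groups overlapped. ENTPD3 (chromosome 3, 40387156 to 40428744, plus strand) stood at 0.332, 0.132 and 0.196 against 0.347, 0.337 and 0.357 FPKM. Its knockdown values were all lower, by as little as 0.005 FPKM between the nearest libraries. Without a filter on low values neither was called (limma adjusted p = 0.274 and 0.105, and 0.484 and 0.172 at a minimum mean of 0.1 FPKM).

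Most other genes for surface enzymes of this kind were low in both groups. Of 13 ectonucleotidase and ectophosphatase genes other than NT5E, 11 were below the filter and 3 (ENPP1, ALPPL2 and ALPI) were listed at 0 in every library. ALPL, tissue-nonspecific alkaline phosphatase, and ACPP, prostatic acid phosphatase, which both can release adenosine from AMP, were untested, the first at 0.981, 0.676 and 1.08 FPKM in the knockdown against 0.579, 0.612 and 0.520 in the control. ACPP stood at 0.378, 0.629 and 0.770 against 0.302, 0.429 and 0.520 FPKM. Where no filter was applied ALPL passed as higher (limma adjusted p = 0.0395) and ACPP did not pass (limma adjusted p = 0.249). BST1, an ADP-ribosyl cyclase, stood at 1.61, 0.9995 and 0.930 against 1.42, 1.73 and 1.57 FPKM and was not called (limma adjusted p = 0.116). Without knockdown library 1 it was called lower (-0.39, limma adjusted p = 0.0144). The 14 genes with NT5E summed to 84.9 to 86.3 FPKM in the control and 10.4 to 11.9 in the knockdown. Without NT5E the sums were 8.54 to 9.23 and 10.03 to 11.3 FPKM.

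Genes of intracellular NTPDases and 5′-nucleotidases, whichever nucleotides their enzymes act on, were called in both directions. Of 4 intracellular NTPDases 3 were called lower: ENTPD4 fell by 0.26, ENTPD6 by 0.34 and ENTPD7 by 0.73, the last from 9.001 ± 0.420 to 5.02 ± 0.320 FPKM (SD, n = 3 each). The median of the list was -0.30, against -0.02 over all tested genes, of which 35.9% were called lower. Of 6 tested intracellular 5′-nucleotidases 2 were called higher, beside 30.5% of all tested genes, and 4 were not called, with a median of 0.09. NT5C1A, a cytosolic enzyme that makes adenosine from AMP, rose from 1.20, 1.84 and 1.34 FPKM in the control to 4.22, 4.77 and 3.95 in the knockdown (log2 difference 1.12, standard error 0.11, limma adjusted p = 3.41e-05). NT5M, the mitochondrial enzyme, rose by 0.89 but was not called after rescaling to equal sums (limma adjusted p = 0.133, the highest over its 17 alternatives, the lowest being 3.31e-04). With quantile normalization 4 of the 6 were called higher, and after rescaling to equal sums 1 was higher and 4 lower.

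The receptor genes were all low, and each measured one had a lower mean in the knockdown. ADORA2B (chromosome 17, 15944917 to 15975746, plus strand), the gene of the low-affinity A2B receptor that raises cyclic AMP, stood at 1.15, 1.31 and 1.32 FPKM in the knockdown and 2.05, 2.94 and 2.48 in the control. The groups did not overlap, and it fell by 0.62 (standard error 0.11, limma adjusted p = 9.96e-04). Its adjusted p lay between 9.53e-07 and 0.00474 over 17 alternatives.

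ADORA2A (chromosome 22, 24417879 to 24442360, plus strand) encodes a receptor of higher affinity that also raises cyclic AMP. It stood at 2.52, 2.01 and 3.28 FPKM in the knockdown and 3.18, 3.64 and 3.37 in the control, and knockdown library 3 lay within the control range. It was not called (log2 difference -0.30, standard error 0.13, limma adjusted p = 0.0613). Without knockdown library 3 it was called (-0.43, limma adjusted p = 0.00781, with 2.37e-06 to 0.164 over its 17 alternatives). It overlaps SPECC1L-ADORA2A, a readthrough gene on the same strand that rose from 5.33 ± 0.295 to 8.21 ± 0.796 FPKM, and ADORA2A-AS1 overlaps it on the other strand and rose from 1.91 ± 0.285 to 2.72 ± 0.168 FPKM (SD, n = 3 each). Their differences were -0.24 and -0.27 after rescaling to equal sums, above the all-gene median of -0.82 there. No source used here says how reads were shared between these genes, so the level of ADORA2A is uncertain.

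ADORA1 (chromosome 1, 203090654 to 203167405, plus strand), the gene of the inhibitory A1 receptor, stood at 0.576, 0.724 and 0.355 FPKM in the knockdown and 0.924, 1.02 and 1.77 in the control. The groups did not overlap, but control library 3 was well above the others. It was below the filter. Without a filter its log2 difference of -0.52 passed (limma adjusted p = 0.0335), and without knockdown library 3, where it met the minimum mean, it did not (-0.42, limma adjusted p = 0.0652). ADORA3, the remaining adenosine receptor gene, was listed at 0 in all 6 libraries.

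Of the enzymes that remove adenosine, ADK changed and ADA was not called. ADK (chromosome 10, 74151185 to 74709303, plus strand, ENSG00000156110.13) stood at 13.2, 11.1 and 15.4 FPKM in the knockdown and 57.1, 56.8 and 54.3 in the control. All knockdown values lay far below all control values. Means of 13.2 ± 2.15 and 56.1 ± 1.56 FPKM (SD, n = 3 each) gave a 4.24-fold difference, and ADK fell by 2.02 (standard error 0.097, limma adjusted p = 2.89e-07). Only 2.95% of tested genes changed as much in either direction. The call held in all 18 alternatives run, with differences from -2.88 to -1.83.

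ADK is transcribed from 2 starts in RefSeq, 1 close to AP3M1, a subunit gene of the AP-3 vesicle coat that runs the other way, and 1 further downstream. AP3M1 stood at 18.7, 16.4 and 18.1 FPKM in the knockdown and 19.4, 18.4 and 19.1 in the control, and the groups overlapped. The log2 difference of AP3M1 was -0.09 (limma adjusted p = 0.191, and 0.03 with quantile normalization). KAT6B, a histone acetyltransferase gene 116 kb beyond the other end, rose by 0.48, and after rescaling to equal sums its difference was -0.34, 0.48 above the all-gene median there. The 121 bases between AP3M1 and the start of ADK in GENCODE are printed with the window before the downstream start, with the same motifs in capitals, because the head-to-head pair shares the former and FPKM per gene do not tell the starts apart. The stretches are chr10:74151064-74151184 and chr10:74176513-74176762, both on the plus strand.
Between AP3M1 and ADK: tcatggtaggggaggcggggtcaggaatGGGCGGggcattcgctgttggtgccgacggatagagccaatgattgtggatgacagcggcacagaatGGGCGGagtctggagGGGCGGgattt
ADK downstream start: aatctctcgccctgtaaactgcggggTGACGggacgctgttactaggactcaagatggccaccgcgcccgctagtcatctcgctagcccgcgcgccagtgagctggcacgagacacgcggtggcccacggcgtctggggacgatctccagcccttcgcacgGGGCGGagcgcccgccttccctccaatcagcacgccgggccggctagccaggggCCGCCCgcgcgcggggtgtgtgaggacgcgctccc
The shared stretch held 3 GC boxes, no TGACG and 1 TEAD site, GGAATG, which overlaps the first GC box. No share over other stretches of 121 bases was computed. The 250-base window before the upstream RefSeq start, which includes this stretch, held 4 GC boxes. At least that many were found in 7.63% of RefSeq windows of that length. The downstream window held 2 GC boxes and 1 TGACG. Of the 9 genes, 8 matched an entry in the RefSeq promoter table.

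ADA (chromosome 20, 44619522 to 44652233, minus strand) stood at 3.95, 3.93 and 5.20 FPKM in the knockdown and 4.36, 5.08 and 4.95 in the control. Knockdown library 3 was the highest of all 6 and the other two the lowest. It was not called (log2 difference -0.12, standard error 0.10, limma adjusted p = 0.34). Without knockdown library 3 it was called (-0.23, limma adjusted p = 0.048, with 1.97e-06 to 0.639 over its 17 alternatives). PKIG overlaps ADA at its end on the other strand and stood at 19.5 ± 1.30 against 21.2 ± 1.92 FPKM (SD, n = 3 each). PKIG was not called, except without control library 1 (-0.19, limma adjusted p = 0.0495) and after rescaling to equal sums. CECR1, the gene of the secreted deaminase ADA2, was untested at 0.987, 0.757 and 0.838 FPKM in the knockdown against 0.155, 0.268 and 0.367 in the control, and passed as higher where no filter was applied (limma adjusted p = 0.00126).

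The rank of the genes by FPKM, a length-scaled level, differed between the groups at its top. In the control the order was NT5E, ADK, ENTPD1, ADA, ADORA2A, ADORA2B, ADORA1, ENTPD3 and ENTPD2, with no overlap between the libraries of any neighbours in that order. In the knockdown it was ADK, ENTPD1, ADA, ADORA2A, ADORA2B, ADORA1, NT5E, ENTPD3 and ENTPD2. There the values of ADORA1 and NT5E overlapped, as did those of ENTPD3 and ENTPD2. NT5E thus moved from rank 1 to rank 7, and the other 8 kept their order.

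All 4 equilibrative nucleoside transporter genes, the tested part of a list of 7 transporters, were called higher. Their median difference was 0.84 against -0.02 over all tested genes, of which 30.5% were called higher. SLC29A1, the main transporter of the plasma membrane (ENT1), stood at 17.1, 24.05 and 20.3 FPKM in the knockdown and 15.4, 15.6 and 14.2 in the control. SLC29A4, a monoamine transporter that also carries adenosine, stood at 24.6, 26.8 and 22.6 against 10.5, 10.6 and 10.3 FPKM, a 2.36-fold rise (log2 difference 1.16, standard error 0.065, limma adjusted p = 7.72e-07). SLC29A2 and the lysosomal transporter gene SLC29A3 rose by 0.74 and 0.93. After rescaling to equal sums SLC29A1 was at -0.45 and called lower, SLC29A2 and SLC29A3 no longer passed (0.08 and 0.14), and SLC29A4 stayed called at 0.31. In the order SLC29A1 to SLC29A4 they lay 0.37, 0.90, 0.96 and 1.13 above the all-gene median there. The concentrative transporter genes SLC28A1, SLC28A2 and SLC28A3 stood at or under 0.153 FPKM in every library. SLC28A3 was lower where no filter was applied (limma adjusted p = 0.0443).

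Among 13 tested genes of adenosine removal and purine salvage, including ADA and ADK, 7 were called lower and 2 higher, with a median of -0.17. The shares over all tested genes were 35.9% lower and 30.5% higher. HPRT1, which salvages hypoxanthine, fell from 36.2 ± 3.46 to 20.8 ± 2.95 FPKM and PNP, purine nucleoside phosphorylase, from 11.95 ± 0.676 to 8.26 ± 0.896 FPKM (SD, n = 3 each). The adenylate kinase gene AK4 fell by 0.45 (limma adjusted p = 0.00111). AHCY and AMPD2, the genes called higher, were named after their values were seen. AHCY, which splits S-adenosylhomocysteine into adenosine and homocysteine, stood at 68.2, 67.7 and 70.3 FPKM against 50.04, 50.8 and 50.5, and AMPD2, an AMP deaminase, stood at 15.9, 19.7 and 15.9 against 13.01, 14.02 and 14.7. The call of AMPD2 (limma adjusted p = 0.0199) was lost without control library 1 (limma adjusted p = 0.0744). With quantile normalization 4 were called lower and 4 higher, and with columns rescaled to equal sums all 13 were lower.

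Genes that couple adenosine receptors to cyclic AMP were mostly lower, with 7 of 11 tested called lower and 3 higher and a median of -0.25. Over all tested genes 35.9% were called lower and 30.5% higher. The inhibitory G protein genes GNAI1, GNAI2 and GNAI3 fell by 1.41, 0.93 and 0.54. GNAI1 stood at 23.9, 18.3 and 23.2 FPKM in the knockdown and 59.9, 60.3 and 57.5 in the control. GNAO1, the main G protein alpha subunit of neurons, rose from 4.02 ± 0.192 to 16.9 ± 2.17 FPKM (SD, n = 3 each; log2 difference 1.83, standard error 0.089, limma adjusted p = 2.97e-07). The adenylyl cyclase gene ADCY8 stood at 2.66, 2.49 and 2.19 against 0.771, 0.771 and 0.513 FPKM. After rescaling to equal sums GNAO1 and ADCY8 stayed higher (1.04 and 0.53), and the list had 2 genes higher and 8 lower.

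The lists were chosen with earlier results of these data known. Over all 10 lists, including the stromal surface markers, P2 receptors and ATP release genes described below, 99 genes were not among the 9. Of these 56 were tested, 17 were called higher and 25 lower. Those are 30.4% and 44.6%, beside 30.5% and 35.9% over all tested genes, and the median difference was -0.15. The stromal surface markers gave 2 of the higher and 6 of the lower calls, so these shares are not those of purine genes alone.

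**Figure D3:**
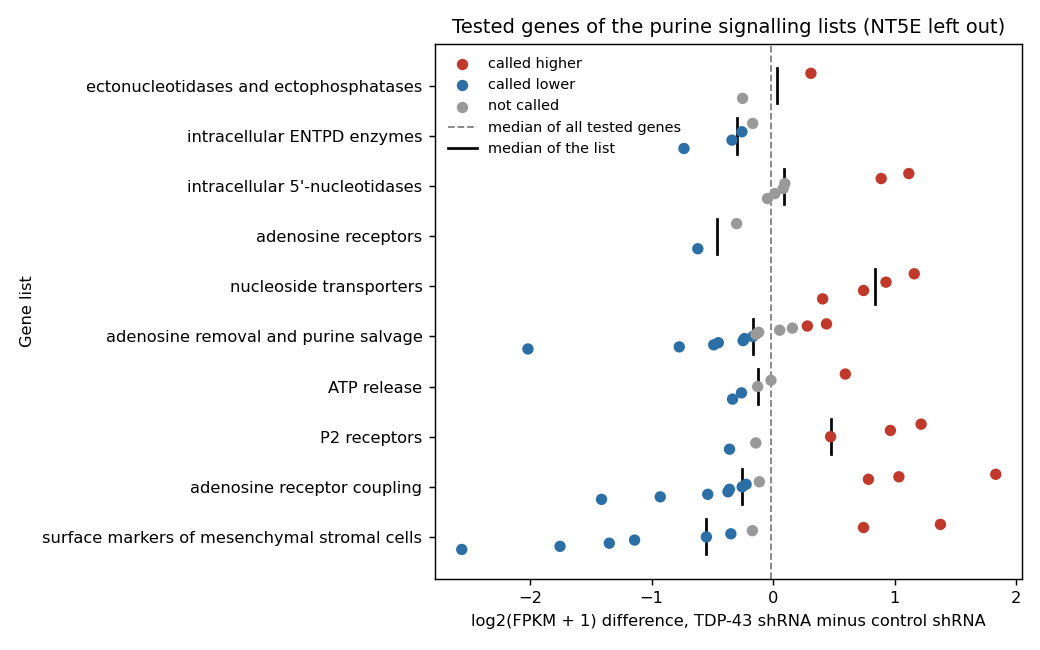
Difference in log2(FPKM + 1), TDP-43 shRNA minus control shRNA, for every tested gene of 10 lists of purine signalling and surface marker genes, NT5E left out, coloured by its limma call, with the median of each list (black bar) and of all tested genes (dashed line). The 4 nucleoside transporter genes all lie above 0, while receptor coupling and mesenchymal stromal surface markers hold genes far to both sides.

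NT5E is one of the surface proteins by which mesenchymal stromal cells are defined. A wider list of their surface markers moved in both directions, more often down. Of 9 tested besides NT5E, 6 were called lower and 2 higher, with a median of -0.55, beside 35.9% lower and 30.5% higher over all tested genes. ALCAM, an adhesion molecule, stood at 30.3, 27.6 and 29.6 FPKM in the knockdown and 177, 179 and 175 in the control, and CD44, the hyaluronan receptor, at 24.9, 22.5 and 24.9 against 84.4, 85.2 and 80.8. ITGB1 and MCAM fell by 1.35 and 1.14. THY1 (CD90) and ENG (CD105), the classical partners of CD73 in the definition of these cells, fell by only 0.55 and 0.35. THY1 stood at 35.2, 35.4 and 35.9 against 51.2, 52.7 and 53.1 FPKM. PDGFRA and PDGFRB, receptors for platelet-derived growth factor, rose, the former from 24.2 ± 1.56 to 64.4 ± 2.26 FPKM (SD, n = 3 each). The difference of NT5E was the largest on this list, but NT5E was chosen for its large fall. After rescaling to equal sums 1 of the other 9 was called higher and 7 lower, and PDGFRB was not called (-0.11).

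The genes most like NT5E were sought by the Euclidean distance between their log2(FPKM + 1) values over the 6 libraries, a measure that takes in both level and difference. The nearest 5 of all genes in the table were ODAM, SULT1B1, CRIM1, ANKRD1 and PRRX1, at distances from 0.775 to 1.02. ODAM, a secreted protein of enamel epithelium, stood at 0.331, 0.107 and 0 FPKM in the knockdown and 81.7, 85.05 and 79.2 in the control. CRIM1, a membrane protein that binds growth factors, stood at 1.13, 0.895 and 1.34 against 69.7, 70.03 and 67.8 FPKM. SULT1B1, a sulfotransferase, stood at 0.162, 0.105 and 0.120 against 64.8, 68.0 and 63.7 FPKM. ANKRD1 and PRRX1 had means of 0.667 and 0.0157 FPKM in the knockdown and 110.1 and 68.6 in the control. All 5 were high in each control library and at most 1.34 FPKM in each knockdown library, which is the pattern they were chosen for.

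The nearest tested genes of the other members gave no common direction. Beside ENTPD1, TCTN3 fell by 0.34 and CCNJ rose by 0.34. Beside ENTPD2, NPDC1 and SAPCD2 rose by 0.43 and 0.27, the call of SAPCD2 being lost without control library 1 (limma adjusted p = 0.0553). Beside ENTPD3, RPL14 rose by 0.48 and EIF1B was not called (0.03). Beside ADORA1, BTG2 rose by 0.59 and PPFIA4 was not called (0.17). SPECC1L, 0.139 kb from ADORA2A, had a difference of -0.13, which was 0.026 with quantile normalization and was not called when any library but knockdown library 2 was left out (limma adjusted p = 0.055 to 0.102). UPB1, on the other side, rose by 0.70. ZSWIM7, which ends 0.814 kb from ADORA2B, was not called (0.17), except without control library 1 (0.22, limma adjusted p = 0.0422). MEIS3P1, a pseudogene whose reads may be shared, fell by 0.64. Beside ADA, SERINC3 fell by 0.59 and RIMS4 rose by 0.87. After rescaling to equal sums the 5 called rises CCNJ, NPDC1, SAPCD2, RPL14 and BTG2 turned negative, as did EIF1B, PPFIA4 and ZSWIM7.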

How the data were processed

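The values are FPKM for each gene in each library, as the authors deposited them. The build hg38 and the tools SAMtools, TopHat2 2.1.0 and Cuffdiff 2.2.1 are named per the submitters' processing notes. No source used here gives their settings, the gene annotation or whether strand was used, although the labels name a directional kit. Each of the 6 columns was matched to its sample by title, and no 2 libraries shared more than 1 identical non-zero value. FPKM holds no read number, so relative depth came from the commonest ratio between values under 0.3 FPKM.

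Differences were computed on log2(FPKM + 1) for genes with a mean of at least 1 FPKM by limma 3.58.1 (R 4.3.3) with an intensity trend, two-sided, with Benjamini-Hochberg adjustment over 13434 genes. The fit was also run on simulated data with independent noise, in which few genes were changed and none of them was low. That setting differs from these data, so it does not show how the method performs here. An exact permutation test of 3 against 3 cannot go below p = 0.1 and was not used. The members and lists were chosen with earlier results of these data known. Named genes are the members, up to 4 called genes per list with the largest change and groups that do not overlap, the nearest tested neighbours and the 5 genes most like NT5E. Not every gene meeting that rule is described. THY1, ENG, ITGB1, MCAM, PDGFRB, GNAI3, NPY, DBH, TWIST1, SNAI2, VIM, FN1, untested list members and the readthrough and antisense genes were added after their values were seen. Positions are 1-based, from GENCODE release 29 on GRCh38, where 93.7% of tested genes matched by symbol. Promoter sequences are from RefSeq on GRCh38.p14. Alternatives were other pseudocounts, filters, scalings and limma settings, a replicate block and leaving out each library, with a rescaling without 6 small RNAs added after seeing the data. Scripts used Python 3.11.15, pandas 2.3.3, numpy 2.4.6 and matplotlib 3.10.9.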

Additional observations from a re-analysis of the deposited data

How the results depend on the processing

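Of 1573 values recomputed for single genes and lists, 1455 were classed as the same and 17 as reversed. A gene was the same if its sign and call held, or if neither fit called it, whatever its sign. Not all changes of sign are therefore among the 17: EIF1B changed sign in 5 settings. A list count was the same when it changed little, and NT5E and the genes most like it when they moved by less than their SD. With columns rescaled to equal sums, 487 genes were called higher and 11791 lower. That scaling was set by 6 small RNAs that held 63.8% to 82.0% of each sum. Of the 8 members other than NT5E it gave 0 higher and 6 lower. Of the other genes of the 10 lists, surface markers included, it gave 6 higher and 43 lower. The members' difference became -0.47 for ENTPD1. Other genes became negative too: BTG2 (-0.23), CCNJ (-0.48), CEP162 (-0.32), CYB5R4 (-0.16), EIF1B (-0.85), GJA1 (-0.25), KAT6B (-0.34), NPDC1 (-0.41), PPFIA4 (-0.42), RPL14 (-0.42), SAPCD2 (-0.51), SLC29A1 (-0.45), SNHG5 (-0.86) and ZSWIM7 (-0.65). So did AHCY (-0.45), AMPD2 (-0.57), PDGFRB (-0.11), SPECC1L-ADORA2A (-0.24) and ADORA2A-AS1 (-0.27). The all-gene median was -0.82 in that setting. With quantile normalization, which moved the median of all genes by 0.11, 58.7% of calls were higher against 45.9%, and SPECC1L and SYNCRIP became 0.026 and 0.14. At a minimum mean of 5 FPKM, where fewer genes were tested, 1 member was lower and 10 of the other listed genes were higher. Leaving out single libraries gave 2 to 4 members lower, the 4 without knockdown library 3, when ADORA2A and ADA joined ADK and ADORA2B. With the replicate block 8561 genes were called and no count of members changed. Same-numbered libraries did not deviate together (correlations of -0.02, -0.18 and -0.09). Deviations from means of 3 libraries cannot decide whether the numbers pair them, so pairing is unknown. Over pseudocounts, filters and scalings the difference of NT5E ran from -7.04 to -5.58. The cause of these shifts was not tested.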

Other observations

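Receptors for ATP itself, which is what the surface enzymes act on first, were low in both groups. Of 17 P2 receptor genes 5 were tested, 3 called higher and 1 lower, with a median difference of 0.47. The shares over all tested genes were 30.5% higher and 35.9% lower. P2RX5, an ATP-gated channel, stood at 2.37, 2.43 and 1.81 FPKM in the knockdown and 0.612, 0.247 and 0.289 in the control (log2 difference 1.22, standard error 0.13, limma adjusted p = 5.30e-05). P2RX7, a channel opened by high ATP, stood at 1.51, 1.14 and 1.47 against 0.831, 0.739 and 0.556 FPKM. P2RX4 fell by 0.36 (limma adjusted p = 0.0155, with 6.57e-06 to 0.0519 over its 17 alternatives, the highest without control library 3). P2RY11, the other gene called higher, stood at 2.70, 1.74 and 3.30 against 0.000786, 1.59 and 1.26 FPKM, so that control library 1 lay far below the others. Its call was lost without knockdown library 1 or 3 (limma adjusted p = 0.0739 and 0.094, with 0.0148 to 0.199 over its 17 alternatives). After rescaling to equal sums 4 P2 receptor genes were tested, 1 called higher and 2 lower.

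Of 11 genes of ATP release 5 were tested, 1 called higher and 2 lower, beside 30.5% and 35.9% over all tested genes, with a median of -0.13. GJA1, the connexin 43 gene, rose from 10.6 ± 0.548 to 16.5 ± 0.929 FPKM, and PANX1, pannexin 1, fell from 17.2 ± 1.002 to 13.4 ± 1.14 FPKM (SD, n = 3 each). ANKH, a membrane protein of pyrophosphate and ATP export, fell by 0.26. After rescaling to equal sums GJA1 turned negative and all 5 tested genes were called lower. SLC17A9, the vesicular nucleotide transporter gene, was listed at 0 in 5 of 6 libraries and at 0.0302 FPKM in control library 3.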
